A study of Bos taurus with 3 samples.

Results

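Cells in late G2 and mitosis were picked from single-cell RNA sequencing of the rumen epithelium by the transcripts of CCNB1, CDC20 and UBE2C. A cell was a member if it held at least 10 unique molecular identifiers (UMIs, each a tag of 1 captured RNA molecule) summed over these 3 genes, and 651 of 20728 cells did. The measured counts of these 3 genes thus chose the members, and their levels are a description with no test.

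The cells came from 3 adult lactating Holstein cows, with 1 library per cow and 1 condition. The ventral rumen was stripped of muscle, digested with EDTA, trypsin and collagenase, and freed of dead cells before capture in droplets. The rumen epithelium is a stratified squamous epithelium that absorbs the short-chain fatty acids made by fermentation. The 3 cows were the replicates, of which cows 1 and 3 alone gave a sum for the comparison with cells rich in MKI67 and TOP2A, and p-values rest on the spread of the differences between classes within a cow.

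A cell enters mitosis when CDK1, bound to its partner cyclin B (CCNB1, CCNB2), becomes active. Aurora and Polo kinases then drive spindle assembly, while condensins compact the chromosomes. CDC20 activates the anaphase-promoting complex (APC/C), a ubiquitin ligase, and UBE2C is the ubiquitin-conjugating enzyme that works with it to destroy cyclin B and securin. Many of these genes are transcribed late in the cell cycle under MYBL2 and FOXM1, after the genes of DNA replication have passed their peak. In a stratified epithelium the dividing cells lie mainly in the basal layer.

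Late G2/M cells were a small share of each library, and the share differed between the cows. They were 86 of 3369 cells in cow 1, 76 of 7401 in cow 2 and 489 of 9958 in cow 3. The shares were 2.55% (exact Clopper-Pearson 95% interval 2.05 to 3.14), 1.03% (0.810 to 1.28) and 4.91% (4.49 to 5.35), with a mean of 2.83% ± 1.96 (SD, n = 3 cows). Cow 2 was lowest and cow 3 highest, and the 3 intervals did not overlap, although they cover counting error only. After each cell was thinned to 5000 UMIs and the floor set to 5 UMIs, the shares were 1.76%, 0.502% and 4.16%, in the same order.

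**Figure D1:**
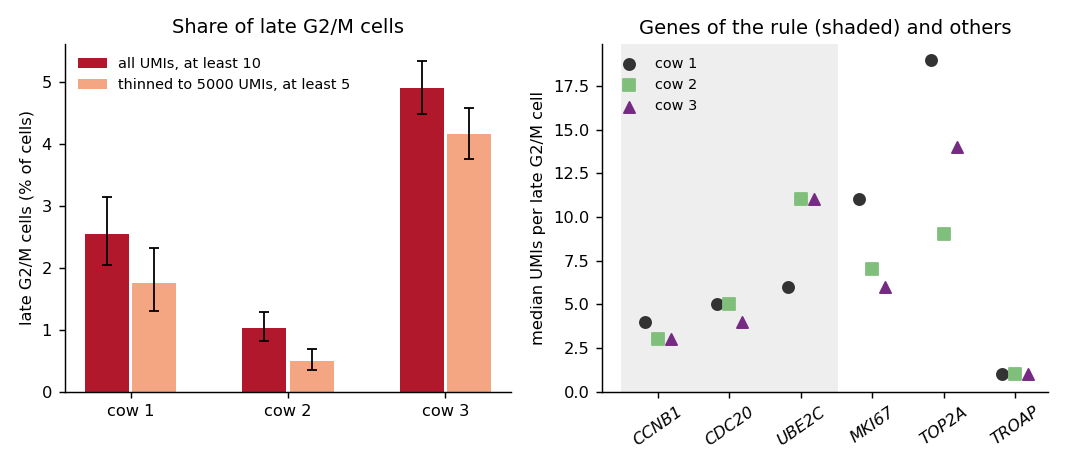
Left, late G2/M cells as a percent of all cells of each cow, with all UMIs and after thinning to 5000 UMIs per cell (bars, with exact 95% binomial intervals). Right, the median UMIs per late G2/M cell of the genes of the rule (shaded) and of MKI67, TOP2A and TROAP in each cow. Cow 3 had the highest share, and the UBE2C median was 6 UMIs in cow 1 against 11 in cows 2 and 3.

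The members held a median of 17 UMIs of the rule genes (quartiles 13 and 25, highest 52), and 593 of them (91.1%) held all 3 genes. Median CCNB1 was 4, 3 and 3 UMIs per member in cows 1, 2 and 3. Median CDC20 was 5, 5 and 4 UMIs. Median UBE2C was 6, 11 and 11 UMIs, so cow 1 was lower in UBE2C while it was not lower in the other genes of the rule. TROAP, a spindle-associated protein that was not in the rule, had a UMI in 80.2%, 60.5% and 55.6% of members against 0.686%, 0.917% and 0.719% of non-cycling cells. MKI67 and TOP2A, general proliferation markers, had a UMI in 98.5% and 98.9% of members.

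After thinning to 5000 UMIs per cell, TROAP had a UMI in 33.7%, 17.1% and 22.1% of members against 0.404%, 0.316% and 0.286%. TROAP, the marker of the label that the rule did not use, was thus far more frequent in members of each cow. Around the floor, the 112 cells with 10 or 11 rule UMIs held 0.479 TROAP, 0.768 PLK1 and 1.22 CCNB2 UMIs per 10000, against 0.465, 0.545 and 1.12 in the 145 cells with 8 or 9. MKI67 and TOP2A were at 4.25 and 5.99 just inside the floor and 3.42 and 5.06 just outside, and RRM2, a gene of S phase, at 0.449 and 0.656.

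Members were compared with 3 other classes. Non-cycling cells held 0 UMIs of the 3 rule genes and of MKI67 and TOP2A (16544 cells). They were not divided by layer. S phase cells held at least 5 UMIs over RRM2, TYMS, CDC45, CLSPN, UHRF1 and MCM10 and at most 2 rule UMIs (920 cells). MKI67/TOP2A cells held at least 10 UMIs of those 2 genes and at most 4 rule UMIs and were not in the S phase class (114 cells, and cow 2 with 7 cells gave no sum). Cells rich in the S phase genes but with over 2 rule UMIs could thus be among them. A set of 373 S phase cells also met the non-cycling rule and stood in both sums, and 2872 cells were in no class.

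The libraries held a median of 10342, 12051 and 9747 UMIs per cell. Median UMIs per member were 20956, 22435 and 16826 in cows 1 to 3, against 9525, 11630.5 and 9084 in non-cycling cells. A floor on a UMI count favours cells with more UMIs, so the part of the rule in this gap was not tested. Members showed a median of 3401, 3361.5 and 3118 genes against 2044, 2052 and 1911, and after thinning 1437, 1367.5 and 1485 against 1302, 1219 and 1304. Thinning left out 540, 206 and 595 non-cycling cells with under 5000 UMIs and no member. Members had more genes per cell in each cow at equal depth as well, but 3 pairs cannot give an exact p below 0.25. The share with over 3500 genes was 40.7%, 38.2% and 19.8% of members against 2.28%, 1.56% and 0.318%, and the deepest member had 3998 genes in data from which the study had removed cells above 4000. Among all cells, 70 shared a barcode sequence with a cell of another library, 5 of them members. The median mitochondrial share of UMIs was 21.9%, 12.2% and 12.7% in members and 16.3%, 10.7% and 12.3% in non-cycling cells.

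Markers of other cell types were at or near 0 in members. The fibroblast list summed to 2 UMIs over all members, the smooth muscle list to 10 and the endothelial list to 14. The immune list summed to 87 UMIs, with 0.0988, 0.0804 and 0.0691 UMIs per 10000 in cows 1 to 3 against 0.0822, 0.0972 and 0.0896 in non-cycling cells. The endothelial list was at 0.0116, 0 and 0.0146 against 0.0346, 0.0211 and 0.0292. The basal epithelial keratins KRT5 and KRT14 were at 38.3 to 70.5 and 23.5 to 56.3 UMIs per 10000 in members.

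The first comparison asked how late G2/M cells differed from the non-cycling class, which included the 373 cells that also met the S phase rule. A gene was called where its adjusted p (edgeR quasi-likelihood test on sums per cow with the cow as a block, Benjamini-Hochberg adjustment) was under 0.05 and its log2 fold change over 0.25 in size. Of 8815 genes tested, 1447 were higher in members (16.4%) and 1669 were lower (18.9%). The differences exceeded a log2 fold change of 1 for 460 higher and 374 lower genes. The median over all tested genes was -0.03. Without the cow block 465 genes were higher and 207 lower. The non-cycling cells nearest to the members in total UMIs, used as an alternative, had medians of 20918.5, 22437.5 and 14345 UMIs against 20956, 22435 and 16826 in members of cows 1, 2 and 3, and 2942, 3028.5 and 2551 genes against 3401, 3361.5 and 3118, so they were lower in UMIs in cow 3 and in genes in each cow.

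The mitotic machinery stood far above the non-cycling level in every cow. All 10 tested mitotic kinases, 8 genes of the passenger complex and sister cohesion, 14 kinetochore genes, 11 kinesins, 14 spindle genes and 6 cytokinesis genes were higher, with median log2 fold changes of 6.30, 5.40, 5.39, 6.38, 5.62 and 5.15. Of all genes tested, 16.4% were higher. Most of these genes are known to be transcribed together with the genes of the rule and were counted in the same cells, so that their calls are not independent of how the members were chosen. CCNB2 (ENSBTAG00000005269), a cyclin B like CCNB1, was at 1.34, 1.35 and 1.83 UMIs per 10000 in members and 0.00499, 0.00777 and 0.0162 in non-cycling cells. Its log2 fold change was 7.01 ± 0.22 (SE derived from the edgeR fit, n = 3 cows). CCNA2 (7.05 ± 0.19), CDK1 (5.87 ± 0.14) and the CDK-binding protein CKS2 (5.43 ± 0.17) also stood apart, and all 10 of the cyclins and CDK regulators tested were higher, with a median of 4.23.

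NEK2, a centrosome kinase, was at 0.541, 0.13 and 0.213 UMIs per 10000 in members against 0.002, 0.000493 and 0.0026, a log2 fold change of 6.96 ± 0.31. Cow 1 was highest among members, and the lowest member value lay above every non-cycling value. AURKB (6.70 ± 0.22), the kinase of the passenger complex, BUB1B (6.62 ± 0.22), a spindle checkpoint kinase, and TTK (6.50 ± 0.32), which recruits checkpoint proteins to the kinetochore, followed. Of the kinesins, KIF2C, which removes tubulin from microtubule ends, changed most. It was at 0.465, 0.26 and 0.46 UMIs per 10000 in members and had 22 UMIs in all non-cycling cells, with none in cow 1 (log2 fold change 8.003 ± 0.27). KIF20A (7.25 ± 0.20) and KIF23 (6.57 ± 0.22), which work in the midzone of the dividing cell, and KIF11 (7.15 ± 0.17), which pushes the poles apart, were in the same range.

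The spindle list was led by ASPM (7.89 ± 0.27), a spindle pole protein, DLGAP5 (7.76 ± 0.20) and TPX2 (6.71 ± 0.16), the activator of AURKA, with TROAP at 6.20 ± 0.17. At the kinetochore, NDC80 (6.85 ± 0.20) and NUF2 (5.72 ± 0.14) are partners in the complex that binds microtubules, and HJURP (6.58 ± 0.23) loads the centromeric histone CENPA. PTTG1, the securin that inhibits separase until anaphase, was at 3.53, 3.95 and 4.35 UMIs per 10000 in members against 0.0233, 0.0268 and 0.0648. Its log2 fold change of 6.53 ± 0.22 lay between those of CDCA8 (6.60 ± 0.22) and BIRC5 (5.63 ± 0.16), subunits of the passenger complex. The cytokinesis genes CIT (6.002 ± 0.32), ANLN (5.33 ± 0.16) and ECT2 (5.22 ± 0.15) were lowest in cow 2 among members, where CIT was at 0.0433 UMIs per 10000 against 0.192 and 0.141 in the other cows.

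**Figure D2:**
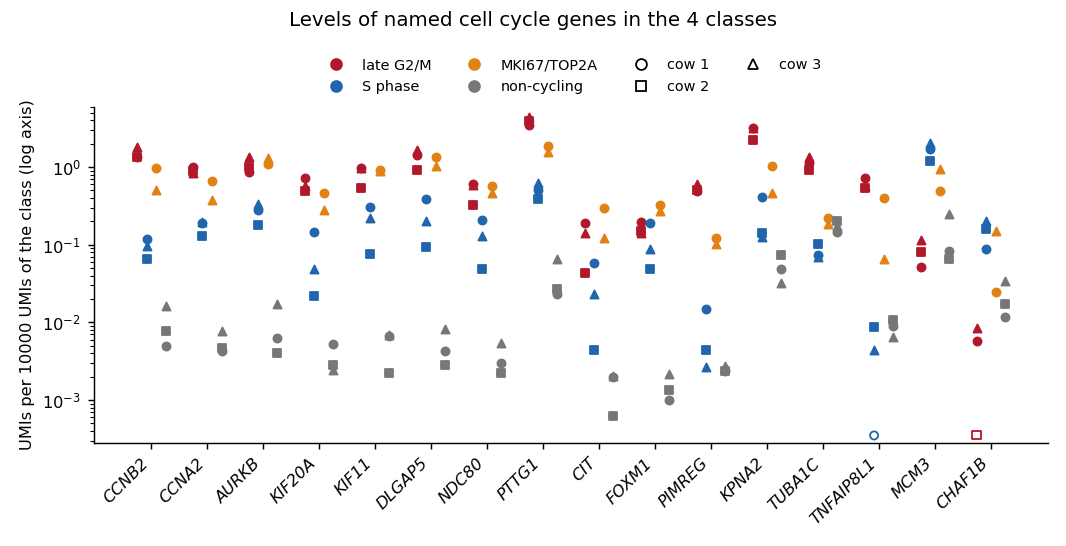
Levels of 16 named genes, in UMIs per 10000 UMIs of the class on a log axis, in late G2/M (red), S phase (blue), MKI67/TOP2A (orange) and non-cycling (grey) cells of each cow (symbols); an open symbol at the bottom is a value of 0. CCNB2 and PIMREG lay above the other 3 classes in each cow, while MCM3 and CHAF1B were highest in S phase cells.

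Of 17 tested genes of APC/C, the ubiquitin ligase that ends mitosis, and its regulators, 6 were higher, none was lower and 11 were not called, with a median of 0.12, where 16.4% of all genes tested were higher. The 11 include the core subunits ANAPC2, ANAPC4 and ANAPC5, which are named here after their values were seen. UBE2S, the enzyme that extends ubiquitin chains on APC/C targets, was at 7.88, 7.05 and 8.30 UMIs per 10000 in members against 0.501, 0.559 and 0.409 (log2 fold change 3.82 ± 0.12). FBXO5, an inhibitor of the complex, was higher by 3.50 ± 0.20, the subunit CDC23 by 1.76 ± 0.17, and FZR1, the activator that takes over from CDC20, by 1.44 ± 0.24.

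All 15 tested genes of condensin and chromatin were higher, with a median of 3.00, beside 16.4% higher of all genes tested. The high-mobility-group protein HMGB2 was at 6.20, 6.01 and 7.71 UMIs per 10000 against 0.284, 0.304 and 0.265 (4.35 ± 0.15), and the condensin subunits NCAPH (5.61 ± 0.28), NCAPG (4.17 ± 0.25) and SMC4 (3.90 ± 0.12) were higher too. All 9 tested tubulins were higher, with a median of 1.69, beside the same share of all genes. TUBA1B was at 10.1, 13.5 and 12.5 UMIs per 10000 against 1.09, 1.44 and 1.31 (3.05 ± 0.10). TUBA1C, TUBB and TUBB4B were higher by 2.54 ± 0.14, 2.52 ± 0.14 and 2.62 ± 0.19. Closely related tubulin genes can share reads, so how the tubulin counts divide among them is uncertain.

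Transcription factors of the late cell cycle were detected but sparse. FOXM1 was at 0.198, 0.149 and 0.142 UMIs per 10000 in members and 0.000999, 0.00136 and 0.00217 in non-cycling cells (6.28 ± 0.32), and a UMI of it was found in 27.9%, 23.7% and 21.3% of members against 0.108%, 0.153% and 0.207%. After thinning the shares were 9.30%, 5.26% and 5.11% against 0%, 0.0789% and 0.136%. FOXM1 was not particular to members. A UMI of it was found in 35.7%, 42.9% and 30.4% of MKI67/TOP2A cells, where cow 2 had 7 cells. After thinning these shares were 17.9%, 0% and 12.8%. MYBL2 was higher by 3.23 ± 0.27 and E2F8 by 4.19 ± 0.44. Of the 15 tested regulators of G2/M transcription, 9 were higher and 2 lower, beside 16.4% higher and 18.9% lower of all genes tested. CENPF, which the kinetochore list counts too, was among the 9. Without the cow block the 9 higher genes fell to 4, CENPF among them. The 2 lower genes were LIN37 and NFYC, with log2 fold changes of -0.50 and -0.36 that were not called without the block. Both are named after their values were seen.

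Genes of DNA replication did not move together. Of 30 tested S phase genes, 16 were higher, 6 lower and 8 not called, with a median of 0.51. Of all genes tested, 16.4% were higher and 18.9% lower. Without the cow block 8 were higher and 1 lower, and against cells nearest in total UMIs 13 and 9. The non-cycling class included the 373 cells that also met the S phase rule. In an alternative without them, chosen after seeing the data, the lower calls of CCNE2 and MCM3 were lost. MCM4, not called otherwise, was called there. CLSPN (2.41 ± 0.23), UHRF1 (2.32 ± 0.33) and TYMS (2.26 ± 0.18), which serve the replication checkpoint, DNA methylation upkeep and thymidylate synthesis, were higher. CHAF1B, a chromatin assembly factor, was at 0.00581, 0 and 0.00849 UMIs per 10000 in members, with 8 UMIs in all, against 0.0117, 0.0173 and 0.0344 (-2.18 ± 0.46), a call lost without the cow block. A floor of 10 rule UMIs per 10000 gave 10 higher and 10 lower genes of the S phase list.

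Of 12 tested cell cycle inhibitors, D cyclins and G cyclins, 6 were higher and 5 lower, the 5 being the 3 D cyclins, which drive G1, and the inhibitors CDKN1A and CDKN1C. Without the cow block 2 were higher and 3 lower. CDKN2C and CDKN2D, INK4 inhibitors of CDK4 and CDK6, were higher: CDKN2C was at 0.465, 0.408 and 0.399 UMIs per 10000 against 0.0672, 0.0592 and 0.0755 (2.43 ± 0.15), and CDKN2D changed by 2.36 ± 0.17. CDKN1C, an inhibitor of several CDKs, was at 0.0291, 0.0124 and 0.0509 against 0.389, 0.358 and 0.403, a log2 fold change of -3.55 ± 0.23. CCND2, a D cyclin of G1, was at 0.0523, 0.0866 and 0.153 against 0.659, 0.571 and 0.869 (-2.88 ± 0.16). The levels of members and non-cycling cells did not overlap for any of these 4 genes, and each call held without the cow block. CCND1 (-1.11 ± 0.16) and CDKN1A (-0.88 ± 0.13), the p53-induced inhibitor, were lower in each cow, but CDKN1A ranged from 0.162 to 1.19 UMIs per 10000 in members and from 0.270 to 1.62 in non-cycling cells, and both calls were lost without the block. Of the 6 tested p53 targets, 3 were lower and 1 higher. Of all genes tested, 18.9% were lower and 16.4% higher. The higher p53 target was BAX, a cell death protein, at 0.79 ± 0.17, a call lost against non-cycling cells nearest in total UMIs. Without the cow block 1 of the 6 p53 targets was higher and none lower.

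**Figure D3:**
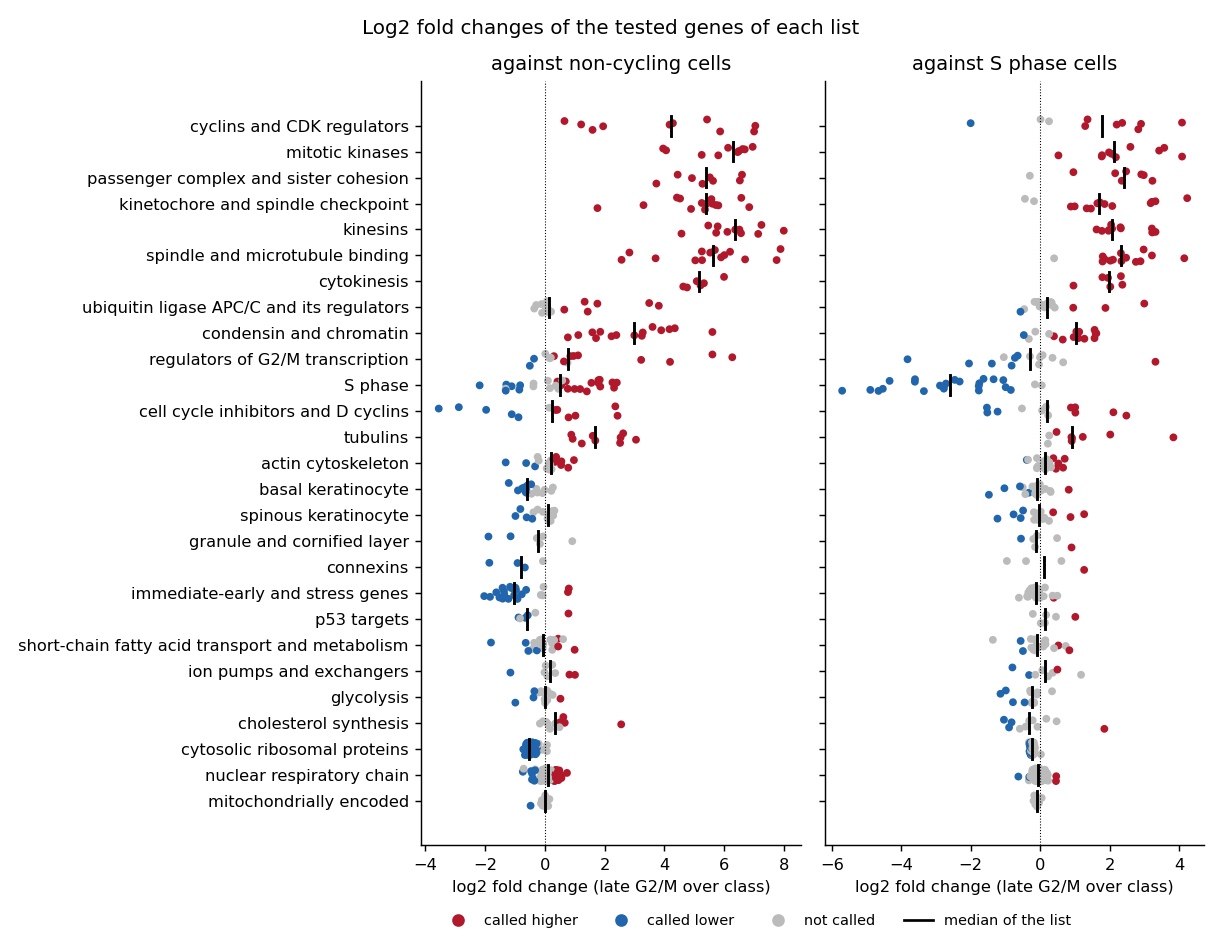
Log2 fold changes of the tested genes of each list in late G2/M cells against non-cycling cells (left) and S phase cells (right), with genes called higher in red, lower in blue and not called in grey; bars mark list medians. The mitotic lists lie far above 0 on the left. The median of the S phase list is -2.59 on the right. That of the immediate-early list is -1.03 on the left, where 2 of its genes were called higher.

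Among genes in no cell cycle list, 15 were named by the size of their rise over non-cycling cells. The first were DEPDC1 (7.85 ± 0.21), PIMREG (7.55 ± 0.19), a mitotic regulator, CDCA3 (6.66 ± 0.19), IQGAP3 (6.54 ± 0.25) and MXD3 (6.45 ± 0.20), a transcription factor of the MYC network. PIMREG (ENSBTAG00000002981) was at 0.488, 0.514 and 0.611 UMIs per 10000 in members and 0.00233, 0.00234 and 0.00275 in non-cycling cells. TNFAIP8L1, of the TNFAIP8 family of lipid-binding proteins, was at 0.715, 0.532 and 0.577 against 0.00899, 0.0108 and 0.00651 (5.93 ± 0.21). CCNB3, a cyclin best known from meiosis, was at 0.349, 0.111 and 0.176 against 0.00333, 0.00173 and 0.00419 (5.69 ± 0.32), 53 UMIs in all non-cycling cells. KPNA2, a nuclear import factor, was at 3.14, 2.21 and 3.19 against 0.0479, 0.0727 and 0.0322 (5.67 ± 0.25). CDCA2, CDKN3, MTFR2, DIAPH3, SPDL1 and CENPN, named by the same rule, changed by 5.43 to 6.37, and members lay above non-cycling cells in each cow.

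Among genes in no cell cycle list with at least 30 UMIs per cow over both classes, 15 were likewise named by the size of their fall. AOX1, aldehyde oxidase, was at 0.0233, 0.0124 and 0.0146 UMIs per 10000 in members and 0.333, 0.121 and 0.103 in non-cycling cells (-3.42 ± 0.36). PRODH, which starts proline breakdown, was at 0.0233, 0.0186 and 0.0606 against 0.244, 0.190 and 0.219 (-2.50 ± 0.22). HIST1H2AC, a histone gene, was at 0.0872, 0.155 and 0.0546 against 0.689, 0.698 and 0.187 (-2.43 ± 0.22). For these 3 genes no cow's members reached any cow's non-cycling cells. The chemokine-scavenging receptor ACKR4 (-3.34 ± 0.50) and the phosphatase DUSP4 (-2.81 ± 0.53) were lower too, but members held only 9 and 5 UMIs of them. GPNMB (-3.34 ± 0.35), KCNAB1 (-3.04 ± 0.33), SAA3, THBS1, SHISA4, CREB3L1, SOSTDC1, KRT6B and ZBTB47 were also among the 15, with changes between -2.71 and -2.45 for the last 7. GPNMB, SAA3, THBS1, SOSTDC1 and KRT6B were not called without the cow block. SAA3 was also not called with DESeq2 or at a floor of 5 rule UMIs. Members held few UMIs of SAA3 (10), SHISA4 (12), AOX1 (18), KCNAB1 (19), ZBTB47 (19) and GPNMB (29). The minimum of 30 UMIs counted both classes, so a gene could pass it on its non-cycling UMIs alone.

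Immediate-early genes, which cells induce quickly on growth factors or stress, were lower in members than in non-cycling cells. Of 23 tested immediate-early and stress genes, 18 were lower and 2 higher, with a median of -1.03, beside 18.9% lower and 16.4% higher of all genes. JUNB, an AP-1 subunit, was at 1.56, 4.06 and 0.929 UMIs per 10000 in members against 7.11, 10.8 and 2.41 (-1.84 ± 0.17, adjusted p = 3.4e-08 by edgeR's quasi-likelihood test). FOS was at 2.13, 2.28 and 0.531 against 6.53, 5.24 and 1.54 (-1.63 ± 0.11), and ATF3 at 1.09, 2.86 and 0.136 against 4.02, 5.43 and 0.355 (-1.52 ± 0.15). Each gene was lower in members of each cow, yet the ranges over cows overlapped, since cow 3 was low in both classes. The 2 higher genes, named after their values were seen, were the chaperone HSPA8 (0.77) and the exchange factor HSPH1 (0.80). No gene of the list was lower without the cow block and 1 was higher, and against non-cycling cells nearest in total UMIs 16 of 22 tested genes were lower with a median of -0.66. Against S phase cells none of the 23 genes was lower and 1 was higher, with a median of -0.12, beside 10.9% and 9.96% of all genes. Against MKI67/TOP2A cells 5 were higher and none lower, beside 0.965% and 1.34% of all genes.

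Cytosolic ribosomal protein genes were modestly lower as a group. Of 78 tested, 73 were lower and 5 were not called, with a median of -0.52, beside 18.9% lower of all genes tested. The list took 2429.6, 3156 and 2906 of 10000 UMIs in members of cows 1, 2 and 3 and 3249.7, 4012 and 3519.8 in non-cycling cells. RPS27 changed by -0.72 ± 0.08 without overlap, at 36.2, 29.7 and 31.4 UMIs per 10000 against 58.3, 43.5 and 41.3. RPL18, RPL35A and RPLP0 changed by -0.67, -0.66 and -0.63, and these 3 were not called without the block. Without the cow block 2 of the 78 genes were lower, with a median of -0.51. Of the 13 mitochondrially encoded genes, 1 was called, ND6 (-0.48 ± 0.11, lost without the block), with a list median of -0.01.

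Markers of the epithelial layers were lower or not called. Of 17 tested basal keratinocyte genes, 10 were lower and none higher, with a median of -0.59, beside 18.9% lower and 16.4% higher of all genes. KRT15 was at 38.3, 36.1 and 41.7 UMIs per 10000 in members against 49.0, 57.4 and 56.4 (-0.66 ± 0.08, adjusted p = 2.8e-06). KRT5 (-0.08 ± 0.07, adjusted p = 0.41) and KRT14 (0.22 ± 0.08, adjusted p = 0.044, under the fold threshold) were not called. The integrin subunit ITGA2 was at 0.0988, 0.0557 and 0.0849 against 0.227, 0.168 and 0.142 (-1.21 ± 0.18), without overlap, and it was the only one of the 10 still called without the cow block. ITGA3, the laminin chain LAMA3 and the matrix protein POSTN changed by -0.76, -0.70 and -0.90.

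DLK2, the marker that the study used for granule cells, was lower in members. It was at 0.186, 0.198 and 0.200 UMIs per 10000 in members and 0.784, 0.907 and 0.444 in non-cycling cells (-1.89 ± 0.19, adjusted p = 9.9e-08). A UMI of DLK2 was found in 20.9%, 21.1% and 21.5% of members against 45.4%, 53.4% and 28.8%, and after thinning in 4.65%, 10.5% and 9.20% against 29.9%, 35.9% and 19.4%. Against non-cycling cells nearest in total UMIs the log2 fold change was -0.83. The water channel AQP3 had a log2 fold change of -1.15 ± 0.13 that was lost without the cow block. DLK2 and AQP3 were the only 2 called of 6 tested granule and cornified layer genes, with a list median of -0.22. TGM3, EVPL, PPL and TMEM79 were not called, and the highest log2 fold change of the list was 0.92. Of 15 tested spinous genes 4 were lower, IGFBP5 (-0.99 ± 0.13) among them, beside 18.9% lower of all genes tested. None of the spinous genes was lower without the block, and against cells nearest in total UMIs 8 were. KRT10, a spinous keratin, had a log2 fold change of -0.42 ± 0.14, a call lost with DESeq2, without the block and without cow 1 or cow 3, among others, and a UMI of it was found in 41.9%, 35.5% and 24.7% of members against 22.6%, 24.2% and 18.1% of non-cycling cells. After thinning the shares were 14.0%, 11.8% and 6.13% against 10.4%, 10.8% and 10.3%, so that members of cow 3 were below the non-cycling cells.

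GJA1, the connexin that marks the channel-gap-like spinous cells of the study, differed in direction between cows. It was at 0.948, 0.959 and 0.226 UMIs per 10000 in members and 1.27, 0.378 and 0.304 in non-cycling cells, higher in members of cow 2 only. The log2 fold change was -0.06 ± 0.24 (adjusted p = 0.88). It was called lower without cow 2 (-0.59), against cells nearest in total UMIs (-1.10) and against non-cycling cells with 0 UMIs of DLK2 (-0.58). After thinning, 18.6%, 22.4% and 4.91% of members had a GJA1 UMI against 15.4%, 5.24% and 4.64% of non-cycling cells. Of 4 tested connexins 3 were lower, with a median of -0.79 and a lowest value of -1.86, beside 18.9% lower of all genes tested. GJB5 (-0.67), on 104 UMIs of the members, was among the 3. No connexin was called without the cow block, and all 4 were lower against cells nearest in total UMIs.

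**Figure D4:**
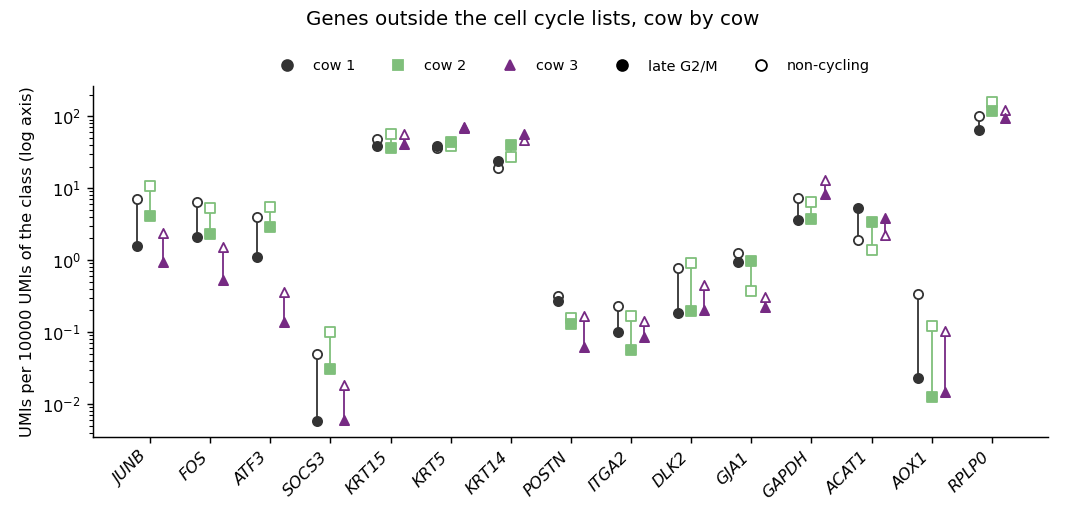
Levels of 15 genes outside the cell cycle lists in late G2/M (filled) and non-cycling (open) cells, in UMIs per 10000 UMIs of the class on a log axis, joined within each cow. JUNB, FOS, ATF3, SOCS3, KRT15, DLK2 and RPLP0 were lower in members of each cow, ACAT1 was higher, and GJA1 changed in different directions.

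Of 20 tested genes of short-chain fatty acid transport and metabolism, 3 were higher, 4 lower and 13 not called, with a median of -0.06, beside the 16.4% higher and 18.9% lower of all genes tested. Against cells nearest in total UMIs 2 were higher and 7 lower, and without the cow block 1 and 0. ACAT1, the mitochondrial thiolase of ketone body metabolism, was at 5.26, 3.36 and 3.91 UMIs per 10000 in members and 1.88, 1.37 and 2.23 in non-cycling cells. Its log2 fold change was 1.00 ± 0.13 (adjusted p = 3.2e-06), it was called in all 15 alternatives (0.79 to 1.24), and members did not overlap the non-cycling cells. SLC16A7, a monocarboxylate carrier, had a log2 fold change of -1.80 ± 0.46 on 24 UMIs of the members, and SLC26A2 and SLC4A7, both anion carriers, had -0.64 and -0.55, all lost without the cow block.

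Of 11 tested genes of cholesterol synthesis and uptake, 4 were higher and none lower, beside 16.4% higher and 18.9% lower of all genes tested. CYP51A1, an enzyme of the pathway, was at 0.134, 0.260 and 0.278 UMIs per 10000 in members and 0.0942, 0.0949 and 0.185 in non-cycling cells (0.62 ± 0.17). FDFT1, which makes squalene, was higher by 0.51 ± 0.14. Both were higher in each cow with ranges that overlapped, and neither was called without the cow block. Against cells nearest in total UMIs 2 genes of the list were higher and 1 lower.

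Of 13 tested glycolysis genes, 1 was higher, 3 were lower and 9 were not called, where 16.4% of all genes tested were higher and 18.9% lower. GAPDH (-0.99 ± 0.10), ENO1 (-0.35) and LDHB (-0.38) were the lower ones and TPI1 the higher (0.52). GAPDH was at 3.64, 3.71 and 8.43 UMIs per 10000 in members against 7.25, 6.53 and 13.1, lower in each cow but with ranges that overlapped, and none of these 4 calls held without the cow block. Of 77 tested nuclear genes of the respiratory chain, 20 were higher and 7 lower (against 16.4% and 18.9% of all genes), but 2 and 11 against cells nearest in total UMIs, where the median turned from 0.11 to -0.15, and without the cow block none was called. Of 8 ion pumps and exchangers, 2 were higher and 1 lower, beside the same shares of all genes. CA1 (0.82) and SLC9A2 (1.01) were higher and the sodium pump subunit ATP1B1 (-1.15) lower. No gene of the list was higher against cells nearest in total UMIs or without the cow block. Of 19 actin cytoskeleton genes, 8 were higher and 3 lower, beside 16.4% and 18.9% of all genes. Among them were RDX (0.97 ± 0.12), which links actin to the membrane, ACTN1 (0.78 ± 0.11), MYL9 (-1.31 ± 0.17) and TPM1 (-0.63 ± 0.11). Without the cow block 1 gene of the list was higher and 1 lower.

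The next comparison set the members beside S phase cells, which are in the cycle too. Of 8811 genes tested, 878 were higher in late G2/M cells (9.96%) and 961 lower (10.9%), by the same edgeR test. The counts were 553 higher without cow 1, 356 higher and 316 lower without cow 3, and 173 higher and 154 lower without the cow block. All 10 mitotic kinases, 11 kinesins and 6 cytokinesis genes were higher here too, with medians of 2.12, 2.07 and 1.99. So were 12 of 14 kinetochore genes and 13 of 14 spindle genes. S phase cells were held to at most 2 rule UMIs, so calls of genes transcribed with the rule genes are not independent of the choice of classes. CCNB2 exceeded the S phase level of 0.118, 0.0661 and 0.0958 UMIs per 10000 by 4.09 ± 0.25 on the log2 scale. MKI67 and TOP2A, which this contrast did not use, were higher by 2.43 ± 0.18 and 2.93 ± 0.17.

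The S phase class was itself chosen by high counts of 6 replication genes, and other replication genes are transcribed with them, so their direction is tied to the choice of class and is given as a description. Of 24 other S phase genes in the fit, 22 were lower and none was higher, with a median of -2.59. CDC6, which loads the replicative helicase, was at 0, 0.0248 and 0.00364 UMIs per 10000 in members and 0.206, 0.172 and 0.316 in S phase cells (-5.70 ± 0.56), with 7 UMIs in all members. CHAF1B, DTL, CCNE2 and the helicase subunit MCM3 changed by -4.89, -4.79, -4.66 and -4.53. MYBL2 was lower (-1.39 ± 0.25) and FOXM1 was not called (0.66 ± 0.28, adjusted p = 0.093).

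The genes with the largest rise over S phase cells were scarcely detected in S phase. PIMREG was at 0.0147, 0.0044 and 0.00266 UMIs per 10000 in S phase cells, a log2 fold change of 7.21 ± 0.30. TNFAIP8L1 was at 0, 0.00881 and 0.00444 (6.65 ± 0.38), FAM72A changed by 4.78 ± 0.47 and CDKN3, a phosphatase of CDK1 and CDK2, by 4.73 ± 0.33. PIF1, a DNA helicase, had 87 UMIs in members and none in S phase cells, so that it was at least 35.6-fold higher when the S phase sum is set at a floor of 3 counts over the class. TUBA1C was at 0.0735, 0.101 and 0.0701 in S phase cells and higher by 3.84 ± 0.20 in members, whereas TUBA1B was higher by 0.47 ± 0.09.

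Of the ribosomal genes, 28 of 78 were lower in members than in S phase cells, with a median of -0.24, beside 10.9% lower of all genes tested. DLK2 was not called (0.49 ± 0.24, adjusted p = 0.16), nor were KRT14 and KRT15, while KRT5 was lower (-0.32 ± 0.07). GJA1 was at 0.544, 0.330 and 0.0710 UMIs per 10000 in S phase cells and higher in members of each cow, by 1.27 ± 0.32 (adjusted p = 0.0069), and a UMI of it was found after thinning in 17.5%, 8.93% and 2.36% of S phase cells. ACAT1 (0.84 ± 0.13) was higher and GAPDH (-1.14 ± 0.10) lower than in S phase cells as well.

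The members were also compared with the MKI67/TOP2A cells. Of 8809 genes tested, 85 were higher in late G2/M cells (0.965%) and 118 lower (1.34%), with 2 sums in the compared class, and 1262 had an unadjusted p under 0.05. Without cow 1 or cow 3 the compared class had 1 sum, assumed to vary like the other classes, and the counts were 36 and 64 in the first case and 17 and 5 in the other, while without cow 2 they were 104 and 125. They fell to 47 and 73 with only these classes in the fit, and to 2 and 1 without the cow block. Of the mitotic lists, 1 of 10 kinases, 2 of 11 kinesins, 3 of 14 spindle genes, 2 of 14 kinetochore genes, 2 of 8 genes of the passenger complex and sister cohesion and 5 of 10 cyclins and CDK regulators were higher, and 1 cyclin or CDK regulator was lower. Of 15 tested regulators of G2/M transcription, none was higher and 3 were lower, with a median of -0.74, beside 0.965% and 1.34% of all genes tested. FOXM1 and MYBL2 were not called. The compared cells were held to at most 4 rule UMIs, so calls of genes transcribed with the rule genes are not independent of the choice of classes. Of 24 S phase genes, 20 were lower and none higher, with a median of -1.89. The full S phase list took 10.9 and 16.7 UMIs per 10000 in members of cows 1 and 3. It took 18.7 and 38.3 in their MKI67/TOP2A cells and 31.8 and 45.4 in their S phase cells, so the compared cells were not free of S phase transcripts. AURKB was not called, at 0.855, 1.01 and 1.35 UMIs per 10000 in members against 1.08 and 1.29 in cows 1 and 3 (0.04 ± 0.24, adjusted p = 0.98 by edgeR).

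The called genes included several that rose over S phase cells as well. TUBA1C was at 0.221 and 0.187 UMIs per 10000 in MKI67/TOP2A cells of cows 1 and 3 and at 1.12 and 1.33 in their members (2.52 ± 0.28, adjusted p = 4.8e-05). PIMREG, KPNA2, CDKN3 and TNFAIP8L1 were higher by 2.36 ± 0.30, 2.07 ± 0.34, 1.73 ± 0.38 and 1.84 ± 0.36. UBE2S (1.01 ± 0.14), PTTG1 (1.37 ± 0.25) and CCNB2 (1.33 ± 0.28) were higher too. Such late cell cycle genes are tied to the cap on rule UMIs in the compared cells, and their calls are given as a description. An unnamed gene, ENSBTAG00000037775, was at 1.20 and 0.643 against 0.344 and 0.0280 (2.64 ± 0.38). ERG28 was called with 0 UMIs in the compared cells, which makes it at least 2.72-fold higher against a floor of 3 counts over the class. ZC3H12A was called on 2 UMIs in the compared cells, and no fold is given. CDC6, CHAF1B, DTL, CCNE2 and NOVA1 had the smallest log2 fold changes, between -4.55 and -3.44, with 4 to 12 UMIs in all members.

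In each cow the members were split at the median of the rule genes per 10000 UMIs, with medians of 11.3, 12.5 and 15.0 in the upper members and 6.19, 6.55 and 8.67 in the lower. Median genes per cell were 3316, 3198 and 3094 in the upper members and 3462, 3424 and 3143.5 in the lower, and median UMIs were 20935, 20354 and 16537 against 20977, 24086.5 and 17064. The split used the same counts that chose the members, so the differences between the upper and lower members are a description and nothing is read from their calls. Of 5681 genes in the edgeR fit, 76 were called higher in the upper members (1.34%) and 92 lower (1.62%). No gene was called without the cow block, where 94 genes had an unadjusted p under 0.05, and the counts fell to 22 and 29 without cow 2 and to 38 and 22 without cow 3.

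TNFAIP8L1 was at 1.08, 0.833 and 0.812 UMIs per 10000 in the upper and 0.371, 0.283 and 0.356 in the lower members (1.29 ± 0.13). The difference was 1.08 ± 0.13 for CDKN3, 1.06 ± 0.23 for BORA, the activator of PLK1, and 1.05 ± 0.22 for CCNB3, with the upper members above the lower in each cow. RRS1, a ribosome assembly factor, differed by 1.08 ± 0.30 but in cow 1 was at 0.108 in the upper members against 0.146. The differences were 0.97 ± 0.09 for KPNA2, 0.97 ± 0.11 for TUBA1C, 0.91 ± 0.13 for PIMREG, 0.73 ± 0.13 for TROAP, 0.44 ± 0.08 for TOP2A and 0.17 ± 0.08 for MKI67.

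**Figure D5:**
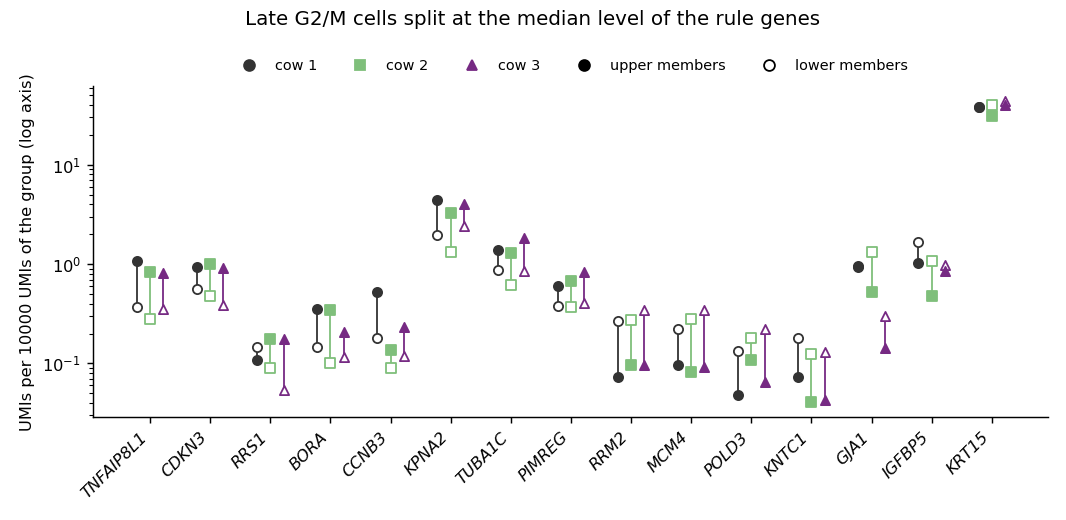
Levels in late G2/M cells above (filled) and below (open) the median of the rule genes, in UMIs per 10000 UMIs of the group on a log axis, joined within each cow. The levels of TNFAIP8L1, KPNA2 and TUBA1C lay higher above the median in each cow, and those of RRM2, MCM4, POLD3, KNTC1 and IGFBP5 lay lower, as a description of a split made on the counts that chose the members.

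Over the 22 S phase genes in the fit, the median log2 difference between upper and lower members was -0.60. RRM2, the small subunit of ribonucleotide reductase, was at 0.0723, 0.0956 and 0.0974 UMIs per 10000 in the upper members and 0.270, 0.272 and 0.342 in the lower (-1.80 ± 0.22). MCM4 (-1.80 ± 0.23), POLD3 (-1.57 ± 0.29), KNTC1 (-1.56 ± 0.34) and the unnamed ENSBTAG00000040098 (-1.62 ± 0.20) were at lower levels in the upper members of each cow. GJA1 was at 0.939, 0.519 and 0.142 in the upper and 0.955, 1.32 and 0.304 in the lower members (-0.82 ± 0.15), nearly level in cow 1. IGFBP5, an IGF-binding protein that names a GJA1-positive spinous subtype in the study, differed by -0.52 ± 0.12.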

How the data were processed

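Droplet single-cell RNA sequencing was done on the rumen epithelium of 3 cows, 1 library each. The authors aligned the reads and counted UMIs with Cell Ranger 3.1.0, kept cells with 500 to 4000 genes, at most 50000 UMIs and at most 40% mitochondrial reads, searched for doublets and removed cells outside the epithelium. The deposited values used here are UMI counts per gene and cell. A second deposited table holds natural log values that the authors normalized per cell, and it was checked against the counts for 19533 genes (largest difference 6.22e-15). No further doublet caller was run, and the tenth of members with the most UMIs was left out as an alternative. Cells were placed in a cow by the suffix of the barcode.

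UMIs were summed per cow and class, with at least 10 cells per sum. They were tested with edgeR 4.0.16 (R 4.3.3) by the quasi-likelihood test with TMM scaling, filterByExpr and the cow as a block, and p-values were adjusted over all tested genes after Benjamini and Hochberg. Calls needed an adjusted p below 0.05 together with an absolute log2 fold change above 0.25. All classes of a cow come from the same animal and library, so the cow pairs the sums. The lowest correlation of deviations between sums of the same cow was 0.292, 0.476 and 0.333. The rule genes were kept out of the tests. Levels are UMIs per 10000 UMIs of the class. Errors of log2 fold changes are standard errors derived from the edgeR fit, as the size of the change over the square root of its F statistic. The fit takes its spread over all its sums, so these errors are not the observed spread between the cows. Each class had 3 cows, except MKI67/TOP2A cells with 2 sums. The steps were tested on simulated data. Exact binomial intervals cover counting error only.

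The members, the gene lists and the named genes were chosen with earlier results of these data known. Named genes are the markers of the rule, up to 4 called genes of each list with the largest change, the 15 largest changes each way among genes in no cell cycle list with at least 30 UMIs per cow over both classes, 11 genes fixed by name, and the 5 largest changes each way in the other comparisons. Alternatives covered the block, DESeq2 1.42.0, its size factors, the filter, the floors of the rule, cells nearest in total UMIs and the cows left out in turn. Some results are not reported here.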

Additional observations from a re-analysis of the deposited data

How the results depend on the processing

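The numbers of called genes moved with the cow block, the fold threshold and the cows included. Without the replicate block the counts of higher and lower genes were 465 and 207 against non-cycling cells, 173 and 154 against S phase cells, 2 and 1 against MKI67/TOP2A cells and 0 and 0 between the upper and lower members. At a log2 fold change over 1 they were 460 and 374 against non-cycling cells, 282 and 345 against S phase cells, 43 and 85 against MKI67/TOP2A cells, and 6 and 18 between the upper and lower members. With only the 2 classes compared in the fit, 47 genes were higher and 73 lower against MKI67/TOP2A cells. Leaving out each cow in turn gave 1080 to 1185 higher and 1155 to 1445 lower genes against non-cycling cells, 356 to 696 and 316 to 802 against S phase cells, 17 to 104 and 5 to 125 against MKI67/TOP2A cells, and 22 to 63 and 22 to 101 between the upper and lower members. Against non-cycling cells, DESeq2 called 1236 higher and 1276 lower, and cells nearest in total UMIs gave 1167 and 1260, with 71.5% of the higher and 61.3% of the lower genes shared. Non-cycling cells without the S phase cells, an alternative chosen after seeing the data, gave 1506 and 1753.

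Of 142 named genes called, 51 were lost without the block, 45 of them in no cell cycle list. The log2 fold change turned for SLC9A2 with cells nearest in total UMIs (-0.12), for CCNE2 and MCM3 at a floor of 5 UMIs (0.35 and 0.33), and for DLK2 against cells with 0 UMIs of DLK2 (a fitted 10.7, by construction); for the first 3 the cause was not tested. The mean share of late G2/M cells was 1.79% to 3.73% with a cow left out. With 3 cows, genes with few UMIs in members limit the precision, and MKI67/TOP2A cells rest on 2 sums.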
